A study of Mus musculus with 6 samples.

Results

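The lymphocyte genes described here are 41 genes that mark or arm T cells, natural killer (NK) cells and B cells, taken by gene symbol from a table of 52459 rows of read counts. They were held in 3 sets: 21 T cell genes, 14 NK and cytotoxic genes, and 6 B and plasma cell genes. The counts came from bulk RNA of mouse liver tumours of the MYC-LAP-tTA genotype, carried by all 6 samples. In this model a liver promoter drives a tetracycline transactivator that switches on a MYC transgene, so that the transgene acts in liver cells and the lymphocytes belong to the host. In 3 samples MYC had been inactivated for 4 days (MYC_Off), and in 3 it was active (MYC_On). The age, the strain, the agent that switched MYC off and the number of animals are not stated in the labels. No label says whether each tumour came from its own animal, so p-values reflect only the spread among these libraries, which could be technical.

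T cells recognise antigen through a receptor whose CD3 chains pass the signal to the kinases LCK and ZAP70 and the adaptor LAT, while CD4 and CD8 hold the receptor on its target and CD28, CTLA4 and PD-1 raise or damp the response. NK cells and cytotoxic T cells kill by releasing perforin and granzymes, and NK cells are read out by killer lectin-like receptors. B cells signal through an immunoglobulin bound to CD79A and CD79B, and plasma cells secrete immunoglobulin, some of it joined by the J chain. The healthy liver is rich in NK cells and patrolling T cells, and liver tumours are infiltrated by lymphocytes to varying degrees.

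The lymphocyte genes were higher in MYC_Off tumours, but very unequally so between the 3 MYC_Off libraries. MYC_Off replicate 1 held 17250 reads of the 41 genes, replicate 2 held 1940 and replicate 3 held 1217, against 644, 1062 and 879 reads in MYC_On replicates 1, 2 and 3. Replicate 1 was the highest of the 6 libraries for 40 of the 40 genes with any read (39 with library size as the only scaling), and it supplied a median of 87.6% of the scaled MYC_Off signal per gene. Among all genes tested, it was the highest in 21.8%. Of the 41 genes 28 had enough reads to be tested, and 19 of them rose and 0 fell (quasi-likelihood test in edgeR, adjusted p under 0.05 by Benjamini-Hochberg). Of all 14130 genes tested, 29.9% were called higher and 22.8% lower. Members with few reads in MYC_On could not have been tested on those reads alone. Without MYC_Off replicate 1, 6 of the 28 genes were called higher, against 27.9% of all genes tested in that fit. Without MYC_Off replicate 2 or 3, 17 and 27 were, against 26.3% and 28.6% of all genes tested. Without MYC_On replicate 1, 2 or 3 the number was 3, 2 and 4, against 20.5%, 20.4% and 20.9% of all genes tested. In bulk RNA, a change in the number of cells of a type and a change in RNA per cell cannot be told apart.

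**Figure D1:**
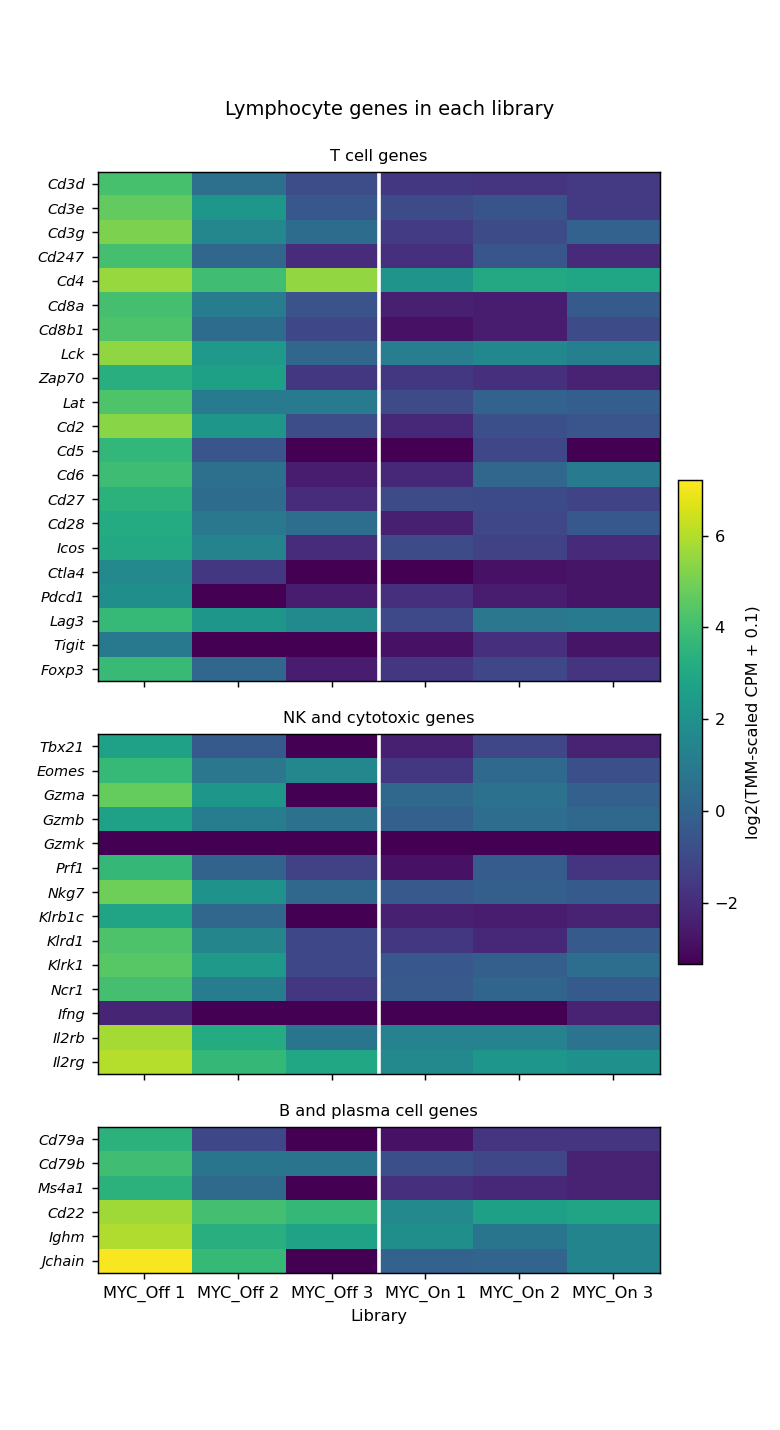
Level of each of the 41 lymphocyte genes (rows) in the 6 libraries (columns, MYC_Off left of the white line), as log2 of TMM-scaled CPM (reads per fixed library total) plus 0.1, in 3 panels for T cell, NK and cytotoxic, and B and plasma cell genes. MYC_Off replicate 1 is the brightest column in all 3 panels, and in replicate 3 Cd4 stays bright while 11 genes have 0 reads.

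The libraries held 16292718 to 19265623 reads assigned to genes. Values below are CPM, the reads per fixed library total after TMM composition scaling, in which 1 read stood for 0.0549 to 0.0768 CPM in MYC_Off and 0.0409 to 0.0493 CPM in MYC_On. The MYC label was checked on the mouse gene Myc, in which reads of the transgene and of the host gene were not told apart. Myc had 74.8, 10.2 and 18.7 CPM in MYC_Off replicates 1, 2 and 3 and 779, 1018 and 854 CPM in MYC_On. It was lower in all 3 MYC_Off libraries (log2 fold change -4.67, SE 0.80, adjusted p = 0.0035), and among them highest in replicate 1. Replicate 1 also differed in the makeup of its RNA. The summed level of 12 pan-leukocyte genes was 2391, 579 and 408 CPM in MYC_Off and 148, 197 and 186 CPM in MYC_On. For 14 macrophage genes it was 8714, 3207 and 2269 CPM in MYC_Off and 663, 821 and 1236 CPM in MYC_On, and for 7 hepatocyte genes 103562, 168605 and 269918 CPM in MYC_Off and 7456, 3647 and 6588 CPM in MYC_On. In that library the pan-leukocyte and macrophage sums were thus the highest and the hepatocyte sum the lowest of the 3 MYC_Off libraries, although Cd163 and Marco, among the macrophage genes, were highest in replicate 2. The 8 genes listed for lymph node stroma summed to 131, 21.4 and 86.6 CPM in MYC_Off and 11.2, 9.66 and 12.9 CPM in MYC_On, and most of each sum was Cd34, which blood vessels also carry. In MYC_Off replicates 1, 2 and 3 the stromal chemokine Ccl21a had 88, 3 and 0 reads, Madcam1, an adhesion molecule of lymphoid vessels, had 57, 5 and 74, and Glycam1 had 0 in each. Of the list 2 genes were tested, of which Cd34 rose (log2 fold change 2.74) and Madcam1 did not pass (2.51). The part of any of these differences in the lymphocyte values was not tested.

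ETS and RUNX factors are known regulators of lymphocyte genes, and to show where their short cores lie, the 250 bases before the annotated start of 6 members are printed. They are the genes of the CD3 chains, which head the T cell results, of the B cell receptor chain CD79A, and of the killing granule proteins granzyme B and NKG7. Capitals mark AGGAAG, a core bound by ETS factors, and TGTGGT, a core bound by RUNX factors, on either strand. All come from RefSeq on GRCm38.p6 and read 5′ to 3′ towards the gene, and no match to 1 motif overlapped a match to the other.
Cd3d (chromosome 9, 44981536 to 44981785, plus strand): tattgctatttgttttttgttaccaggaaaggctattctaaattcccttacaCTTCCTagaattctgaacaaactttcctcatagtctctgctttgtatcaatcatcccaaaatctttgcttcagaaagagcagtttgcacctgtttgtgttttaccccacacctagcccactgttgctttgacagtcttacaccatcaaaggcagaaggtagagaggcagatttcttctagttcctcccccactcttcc
Cd3e (chromosome 9, 45009612 to 45009861, minus strand): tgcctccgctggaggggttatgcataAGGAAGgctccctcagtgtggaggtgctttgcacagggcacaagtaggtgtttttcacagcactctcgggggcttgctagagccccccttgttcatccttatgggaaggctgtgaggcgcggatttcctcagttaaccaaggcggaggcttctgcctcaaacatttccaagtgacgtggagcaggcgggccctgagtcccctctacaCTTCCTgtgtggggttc
Cd3g (chromosome 9, 44980432 to 44980681, minus strand): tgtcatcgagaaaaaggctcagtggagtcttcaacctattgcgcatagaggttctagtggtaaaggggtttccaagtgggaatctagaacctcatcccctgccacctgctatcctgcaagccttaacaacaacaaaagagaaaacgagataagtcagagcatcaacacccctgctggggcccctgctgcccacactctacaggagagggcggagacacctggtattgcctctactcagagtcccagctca
Cd79a (chromosome 7, 24897247 to 24897496, plus strand): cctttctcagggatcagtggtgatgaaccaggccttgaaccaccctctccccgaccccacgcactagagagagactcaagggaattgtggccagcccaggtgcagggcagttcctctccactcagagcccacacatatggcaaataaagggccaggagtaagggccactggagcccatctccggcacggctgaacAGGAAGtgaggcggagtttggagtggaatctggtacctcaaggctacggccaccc
Gzmb (chromosome 14, 56262335 to 56262584, minus strand): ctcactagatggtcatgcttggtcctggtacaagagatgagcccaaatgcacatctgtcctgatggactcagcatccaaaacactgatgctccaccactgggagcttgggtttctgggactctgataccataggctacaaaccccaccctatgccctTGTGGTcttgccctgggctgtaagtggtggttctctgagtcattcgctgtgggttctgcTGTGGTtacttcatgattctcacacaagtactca
Nkg7 (chromosome 7, 43436888 to 43437137, plus strand): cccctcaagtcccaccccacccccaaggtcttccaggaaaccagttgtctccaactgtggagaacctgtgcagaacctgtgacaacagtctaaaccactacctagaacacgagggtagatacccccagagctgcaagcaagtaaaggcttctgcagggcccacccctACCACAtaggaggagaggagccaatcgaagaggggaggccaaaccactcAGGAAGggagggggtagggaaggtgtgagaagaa

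Such windows were found for 29 of the 41 genes. AGGAAG occurred in at least 1 window of 10 of 14 T cell genes, 5 of 12 NK and cytotoxic genes and 1 of 3 B cell genes, and in 32.3% of all genes with a window. TGTGGT occurred in 3 of 14 T cell genes, 8 of 12 NK and cytotoxic genes and 0 of 3 B cell genes, against 15.9% of all genes. The GATA core AGATAA was found in 3, 0 and 0 genes of the 3 sets, the E-box CAGCTG in 1, 1 and 0, the palindromic EBF site in 0, 1 and 1, and the octamer ATGCAAAT in none of the 29. All genes with a window held these 4 motifs in 11.4%, 14.7%, 0.914% and 1.81% of cases. A match describes these letters only, and says nothing of whether a factor binds there.

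The genes of the T cell receptor complex rose unevenly. Cd3e, a signalling chain of the complex (mm10 chromosome 9, 44998740 to 45009627, minus strand), had 25.6, 4.67 and 0.614 CPM in MYC_Off replicates 1, 2 and 3, against 0.445, 0.573 and 0.247 CPM in MYC_On. All 3 MYC_Off libraries lay above all MYC_On libraries, although replicate 3 held 8 reads, against 5 to 14 in MYC_On. Cd3e averaged 10.3 ± 13.4 CPM in MYC_Off and 0.422 ± 0.164 CPM in MYC_On (SD, n = 3 each) and rose (log2 fold change 4.58, SE 1.26, adjusted p = 0.0195). Set against the MYC_On libraries pooled, Cd3e reads were 59.3 times higher in MYC_Off replicate 1 (95% exact interval 40.7 to 89.5), 10.8 times in replicate 2 (6.84 to 17.5) and 1.42 times in replicate 3 (0.562 to 3.19). These intervals cover counting error only.

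Cd3g, another chain of the complex, had 34.9, 2.83 and 1.23 CPM in MYC_Off and 0.267, 0.450 and 0.888 CPM in MYC_On, and rose (4.60, SE 1.34, adjusted p = 0.0236). Cd3d, the remaining CD3 chain, had 316, 18 and 6 reads in MYC_Off and 5 in each MYC_On library. It did not reach the minimum count for the test, although its groups did not overlap. With no filter on low counts, where 16.3% of all genes were called higher, it was called (4.71, adjusted p = 0.0346). Cd247, which encodes the zeta chain, had 17.3, 0.995 and 0.154 CPM in MYC_Off and 0.178, 0.614 and 0.148 CPM in MYC_On. Its groups overlapped, because replicate 3 lay within the MYC_On range, and it did not pass (4.25, SE 1.59, adjusted p = 0.0561). Of its exon bases 56.4% are shared with Pou2f1 on the other strand, and no strand setting is stated, so its reads are uncertain.

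The coreceptors parted company. Cd4, the coreceptor of helper T cells, which some mouse dendritic cells also carry (chromosome 6, 124864692 to 124888221, minus strand), had 47.4, 15.5 and 44.5 CPM in MYC_Off and 4.28, 7.98 and 7.40 CPM in MYC_On. It was high in replicates 1 and 3 and lower in replicate 2, with no overlap between the groups, and rose (log2 fold change 2.45, SE 0.48, adjusted p = 0.00567). Cd4 was the member whose MYC_Off signal rested least on replicate 1, which gave 44.1% of it, and it was called higher in all 15 alternative fits. Leaving out each library in turn gave log2 fold changes of 2.05 to 2.75 and adjusted p of 0.00352 to 0.0249.

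Cd8a, a chain of the coreceptor of cytotoxic T cells (chromosome 6, 71373427 to 71379173, plus strand), had 16.9, 2.07 and 0.538 CPM in MYC_Off and 0.0891, 0.0819 and 0.690 CPM in MYC_On. Its partner chain Cd8b1 had 19.3, 1.22 and 0.384 CPM in MYC_Off and 0.0445, 0.0819 and 0.444 CPM in MYC_On. In both genes MYC_Off replicates 1 and 2 lay above every MYC_On library and replicate 3 lay below MYC_On replicate 3. Both rose (4.51, SE 1.46, adjusted p = 0.0344 for Cd8a and 5.19, SE 1.64, adjusted p = 0.0317 for Cd8b1), and both lost their calls without MYC_Off replicate 1 (adjusted p = 0.136 and 0.139), without MYC_On replicate 1 (0.102 and 0.0945) and without MYC_On replicate 2 (0.116 and 0.113). Cd8b1 also lost its call without MYC_On replicate 3 (adjusted p = 0.0548).

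Within a library the ratio of reads between genes is free of scaling, and it set MYC_Off replicate 3 apart. For each read of Cd3e there were 1.85, 3.33 and 72.4 reads of Cd4 in MYC_Off replicates 1, 2 and 3, and 9.60, 13.9 and 30.0 in MYC_On. MYC_Off replicate 3 thus had the highest ratio of the 6 libraries and replicate 1 the lowest, with 8 Cd3e reads behind the highest ratio. The Cd8a to Cd3e ratio was 0.659, 0.443 and 0.875 in MYC_Off and 0.2, 0.143 and 2.80 in MYC_On, so the MYC_Off values lay between those of MYC_On. These ratios were picked after the values had been seen and carry no test.

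Among the genes that carry the receptor signal, Lat, the adaptor that gathers signalling enzymes, rose while the kinase Lck did not pass. Lat had 19.5, 1.99 and 1.84 CPM in MYC_Off and 0.445, 0.900 and 0.789 CPM in MYC_On, without overlap (3.44, SE 1.04, adjusted p = 0.0271). Lck, the kinase that starts the signal, had 43.1, 5.05 and 0.999 CPM in MYC_Off and 2.14, 2.95 and 2.22 CPM in MYC_On. Replicate 3 of MYC_Off lay below every MYC_On library (2.75, SE 1.17, adjusted p = 0.083). Zap70, the kinase recruited by phosphorylated CD3 chains, had 173, 81 and 3 reads in MYC_Off and 5, 4 and 2 in MYC_On, too few for the test. In Zap70 replicate 2 came closest to replicate 1 among the T cell genes.

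Surface and costimulatory genes followed the same order of libraries. Cd2, an adhesion receptor, had 39.6, 4.59 and 0.461 CPM in MYC_Off and 0.134, 0.491 and 0.592 CPM in MYC_On and rose (5.19, SE 1.52, adjusted p = 0.0242). The costimulators Cd28 (3.43, SE 1.00, adjusted p = 0.0237) and Icos (3.51, SE 1.19, adjusted p = 0.0408) rose as well. Cd28 had 8.79, 1.76 and 1.31 CPM in MYC_Off and 0.0891, 0.368 and 0.641 CPM in MYC_On, so its groups did not overlap, whereas Icos had 145, 33 and 2 reads in MYC_Off and 10, 8 and 3 in MYC_On, and replicate 3 was not above MYC_On. Cd27, a costimulatory receptor of the tumour necrosis factor receptor family, had 10.9, 1.22 and 0.154 CPM in MYC_Off and 0.345 to 0.445 CPM in MYC_On (3.34, SE 1.29, adjusted p = 0.0628). Cd6, a receptor that tunes adhesion, had 15.2, 1.38 and 0.0768 CPM in MYC_Off and 0.134, 1.02 and 1.97 CPM in MYC_On (2.42, SE 1.52, adjusted p = 0.215). Without MYC_Off replicate 1 the log2 fold change of Cd6 was -0.66, the single negative value among the 28 genes in that fit. Cd5, its relative, had 229, 8 and 0 reads in MYC_Off and 0, 9 and 0 in MYC_On.

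Of the checkpoint genes, which damp T cell responses, Lag3 alone had enough reads for the test. Lag3, a receptor related to CD4, had 13.0, 4.67 and 3.15 CPM in MYC_Off and 0.401, 1.72 and 1.97 CPM in MYC_On, without overlap, and rose (2.34, SE 0.78, adjusted p = 0.0377). Of the 6 fits that leave out 1 library, Lag3 was called in 1, the fit without MYC_Off replicate 3, and the others gave log2 fold changes of 1.37 (without MYC_Off replicate 1) to 2.70 and adjusted p of 0.0539 to 0.123. Ctla4 had 54, 3 and 0 reads in MYC_Off and 0, 1 and 1 in MYC_On. Pdcd1, which encodes PD-1, had 67, 0 and 1 reads in MYC_Off and 4, 2 and 1 in MYC_On, and Tigit had 33, 0 and 0 in MYC_Off and 1, 4 and 1 in MYC_On. For these 3 genes MYC_Off replicate 1 alone lay well above the rest. Foxp3, the factor that defines regulatory T cells, had 249, 13 and 1 reads in MYC_Off and 5, 9 and 4 in MYC_On, and parts of its exons are shared with Ccdc22, Ppp1r3f and Flicr.

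**Figure D2:**
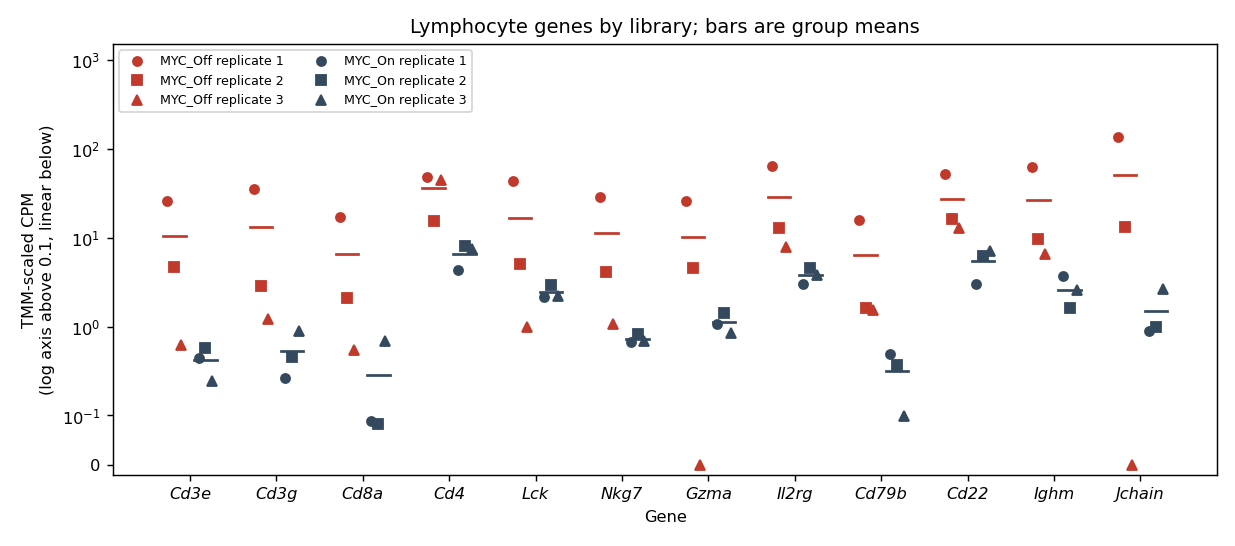
TMM-scaled CPM (log axis above 0.1, linear below) of 12 lymphocyte genes in each library, with MYC_Off in red left of MYC_On in dark grey, a marker shape for each replicate number and a bar at each group mean. MYC_Off replicate 1 is the highest point for each gene, and replicate 3 is high for Cd4, within or near the MYC_On points for most other genes, and at 0 for Gzma and Jchain.

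Over the T cell set, 10 of the 14 tested genes rose and 0 fell, where 29.9% of all genes tested rose and 22.8% fell. The 10 were Cd2, Cd28, Cd3e, Cd3g, Cd4, Cd8a, Cd8b1, Icos, Lag3 and Lat. The median log2 fold change of the 14 was 3.47, against 0.18 over all genes tested. Members with few MYC_On reads, such as Cd8b1 (1, 2 and 9), could not have been tested on those reads alone. The direction and median of the tested genes therefore depend in part on the minimum count. The same holds for the NK and cytotoxic and the B and plasma cell sets. Measured from the MYC_On mean, the median of the 14 genes stood at 4.53, 2.06 and 0.73 on the log2 scale in MYC_Off replicates 1, 2 and 3. All 21 genes, tested or not, summed to 381, 59.9 and 56.4 CPM in MYC_Off and 10.4, 19.4 and 19.2 CPM in MYC_On. Without Cd4 the other 20 summed to 334, 44.4 and 11.9 CPM in MYC_Off and 6.15, 11.4 and 11.8 CPM in MYC_On, so that replicate 3 stood at the level of the highest MYC_On library. Without MYC_Off replicate 1, 2 T cell genes (Cd3e and Cd4) were called higher (27.9% of all genes) and the median was 1.84. Without MYC_On replicate 1, 2 or 3, the number was 1, 1 and 3, against 20.5%, 20.4% and 20.9% of all genes. The medians in these fits were 3.64, 3.6 and 3.73. The call of Cd3e was lost each time (adjusted p = 0.0622, 0.0663 and 0.0735). In limma-voom 3 of the set's genes passed (27.3% of all genes).

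Among the NK and cytotoxic genes, Nkg7, a protein of cytotoxic granules (chromosome 7, 43437073 to 43438249, plus strand), had 28.9, 4.06 and 1.08 CPM in MYC_Off and 0.668, 0.819 and 0.690 CPM in MYC_On. The groups did not overlap, although replicate 3 held 14 reads, against 14 to 20 in MYC_On. Nkg7 averaged 11.3 ± 15.3 CPM in MYC_Off and 0.726 ± 0.0812 CPM in MYC_On (SD, n = 3 each) and rose (3.96, SE 1.15, adjusted p = 0.0235). The granule proteases and the pore-forming protein did not pass the test. Gzma, a granzyme abundant in NK cells, had 26.1, 4.59 and 0 CPM in MYC_Off and 1.07, 1.43 and 0.838 CPM in MYC_On (3.20, SE 1.5, adjusted p = 0.109). Replicate 3 thus had 0 Gzma reads, which allows up to 0.230 CPM by counting error, where the 3 MYC_On libraries had 24, 35 and 17.

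Gzmb, the main granzyme of activated killer cells, had 6.32, 2.07 and 1.46 CPM in MYC_Off and 0.846, 1.27 and 1.04 CPM in MYC_On, without overlap (1.65, SE 0.65, adjusted p = 0.0657). Its fold change was the smallest of the 28 genes fitted. Prf1, which encodes perforin, had 12.7, 0.918 and 0.307 CPM in MYC_Off and 0.0445, 0.737 and 0.197 CPM in MYC_On (3.79, SE 1.5, adjusted p = 0.0676). Gzmk had 0 reads in all 6 libraries, and since the annotation used for counting is not given in the sources used here, it is not known whether its transcripts could be counted. Ifng, the interferon of activated T and NK cells, had 2, 0 and 0 reads in MYC_Off and 0, 0 and 2 in MYC_On. The interferon gene was thus at the edge of detection even in MYC_Off replicate 1. Granzymes are a family of related genes, and their counts are uncertain where reads fit several copies.

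NK cell receptor genes were spread unevenly over the MYC_Off libraries too. Klrd1, the CD94 chain of inhibitory and activating receptors, had 18.8, 2.68 and 0.384 CPM in MYC_Off and 0.223, 0.123 and 0.690 CPM in MYC_On and rose (4.41, SE 1.40, adjusted p = 0.0329). Klrk1, which encodes the activating receptor NKG2D, had 22.2, 5.05 and 0.384 CPM in MYC_Off and 0.624, 0.819 and 1.28 CPM in MYC_On and rose (3.34, SE 1.20, adjusted p = 0.0497). In both, MYC_Off replicate 3 was not above the highest MYC_On library, and for Klrk1 it was below the lowest. Ncr1, the receptor NKp46 that defines NK cells, had 16.9, 2.07 and 0.230 CPM in MYC_Off and 0.668, 0.982 and 0.690 CPM in MYC_On. It did not pass (3.03, SE 1.27, adjusted p = 0.0803), and replicate 3 again lay below all MYC_On libraries. Klrb1c, which carries the NK1.1 antigen in some mouse strains, had 126, 13 and 0 reads in MYC_Off and 2 in each MYC_On library. Killer lectin-like receptor genes lie in families of close copies.

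The factors and cytokine receptor chains of the set were less uniform. Eomes, a T-box factor of NK and memory T cells, had 13.0, 1.68 and 2.84 CPM in MYC_Off and 0.223, 1.11 and 0.493 CPM in MYC_On, without overlap, and rose (3.25, SE 0.96, adjusted p = 0.0255). Tbx21, which encodes the related factor T-bet, had 118, 9 and 0 reads in MYC_Off and 2, 9 and 2 in MYC_On. In MYC_Off replicate 3 these factors therefore stood apart, with 37 reads of Eomes and 0 of Tbx21.

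Il2rg, the common gamma chain of several interleukin receptors, found on most lymphocytes and on myeloid cells, had 64.5, 12.7 and 7.91 CPM in MYC_Off and 3.03, 4.50 and 3.80 CPM in MYC_On. Its groups did not overlap, and it rose (2.91, SE 0.79, adjusted p = 0.0187), also without MYC_Off replicate 1 (1.30, adjusted p = 0.0217). Gm20489 shares 30.5% of its exon bases on the same strand. Il2rb, the beta chain of the receptors for interleukins 2 and 15, had 55.4, 8.72 and 1.61 CPM in MYC_Off and 2.41, 2.41 and 1.53 CPM in MYC_On and rose (3.37, SE 1.13, adjusted p = 0.0389), with replicate 3 inside the MYC_On range.

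Over the NK and cytotoxic set, 6 of the 10 tested genes rose (29.9% of all genes) and 0 fell, with a median log2 fold change of 3.30. The 6 were Eomes, Il2rb, Il2rg, Klrd1, Klrk1 and Nkg7. Measured from the MYC_On mean, MYC_Off replicates 1, 2 and 3 had medians of 4.48, 1.86 and 0.31. The 14 genes summed to 278, 46.2 and 16.2 CPM in MYC_Off and 9.98, 14.7 and 11.5 CPM in MYC_On. Without MYC_Off replicate 1, Il2rg was the single call (27.9% of all genes) and the median was 1.22. Without MYC_Off replicate 3, all 10 tested genes were called higher (28.6% of all genes), with a median of 3.83. Without MYC_On replicate 1, 2 or 3, the number was 0, 1 and 0, against 20.5%, 20.4% and 20.9% of all genes. In these fits 5, 4 and 4 genes had an unadjusted p under 0.05, for which the share of all genes was not computed. The medians were 3.15, 3.45 and 3.15. DESeq2 called 10 (31.4% of all genes) and limma-voom 1.

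In the B and plasma cell set, Cd79b, a signalling chain of the B cell receptor (chromosome 11, 106311341 to 106314762, minus strand), had 15.8, 1.61 and 1.54 CPM in MYC_Off and 0.490, 0.368 and 0.0986 CPM in MYC_On. All MYC_Off libraries lay above all MYC_On libraries, and Cd79b rose (4.28, SE 1.16, adjusted p = 0.0183). Its partner chain Cd79a had 195, 5 and 0 reads in MYC_Off and 1, 5 and 4 in MYC_On, and Ms4a1, which encodes CD20, had 194, 15 and 0 in MYC_Off and 4, 3 and 2 in MYC_On. Neither had enough reads for the test, and replicate 3 of MYC_Off had none of either where each MYC_On library had some.

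Cd22, an inhibitory lectin of B cells (chromosome 7, 30865402 to 30880342, minus strand), had 52.5, 16.3 and 12.8 CPM in MYC_Off and 3.03, 6.18 and 7.05 CPM in MYC_On. Ighm, the constant region of the mu heavy chain (chromosome 12, 113418558 to 113422730, minus strand), had 62.3, 9.64 and 6.53 CPM in MYC_Off and 3.65, 1.60 and 2.56 CPM in MYC_On. In both genes all MYC_Off libraries lay above all MYC_On libraries, and both rose (2.33, SE 0.62, adjusted p = 0.0172 for Cd22 and 3.33, SE 0.91, adjusted p = 0.0191 for Ighm). The antisense gene Gm29439 covers 9.5% of the exon bases of Cd22, and no strand setting is stated, so its count is uncertain. Immunoglobulin constant regions are related genes, and whether Ighm reads also fit others was not tested.

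Jchain, the joining chain made by plasma cells (chromosome 5, 88519809 to 88527891, minus strand), had the widest range of CPM of all members. It had 137, 13.2 and 0 CPM in MYC_Off and 0.891, 0.982 and 2.61 CPM in MYC_On. Replicate 1 thus held 2486 reads and replicate 3 held 0, which allows up to 0.230 CPM by counting error, while the MYC_On libraries held 20, 24 and 53. Jchain did not pass (5.07, SE 1.85, adjusted p = 0.0523). In MYC_Off replicate 3 the B cell genes therefore went apart, with 85 reads of Ighm and 167 of Cd22, and 0 of Jchain, Cd79a and Ms4a1.

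Over the B and plasma cell set, 3 of the 4 tested genes rose (Cd22, Cd79b and Ighm) and 0 fell. Their median log2 fold change, over the 4 tested genes, was 3.80. Of all genes tested 29.9% were called higher. Measured from the MYC_On mean, the medians of MYC_Off replicates 1, 2 and 3 were 4.98, 2.03 and 1.34. The 6 genes summed to 289, 42.3 and 20.9 CPM in MYC_Off and 8.28, 9.45 and 12.6 CPM in MYC_On. The 3 called genes were also called without MYC_Off replicate 1 (27.9% of all genes), where the median was 1.74. There the log2 fold changes were 1.28 for Cd22, 2.12 for Cd79b and 1.48 for Ighm. Without MYC_On replicate 1, 2 or 3, 2, 0 and 1 were called, against 20.5%, 20.4% and 20.9% of all genes. In these fits 3 genes had an unadjusted p under 0.05 each time, for which the share of all genes was not computed. The medians were 4.18, 3.73 and 3.59.

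**Figure D3:**
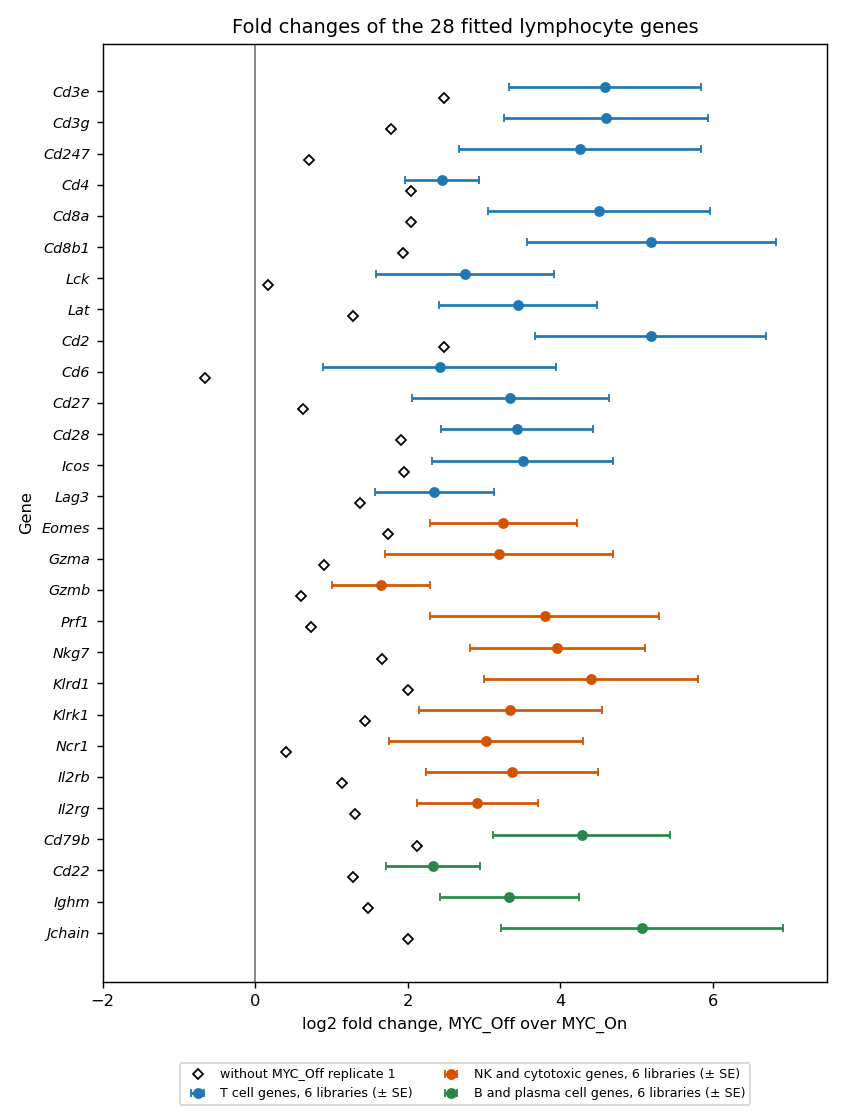
Log2 fold change (MYC_Off over MYC_On) of the 28 tested lymphocyte genes with all 6 libraries (filled points ± SE, coloured by set) and without MYC_Off replicate 1 (open diamonds). With all libraries the values run from 1.65 (Gzmb) to 5.19 (Cd8b1), and without replicate 1 from -0.66 (Cd6) to 2.48 (Cd2).

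Counted by library, the lymphocyte genes separated the MYC_Off tumours. Of the 28 tested genes, MYC_Off replicate 1 exceeded the highest MYC_On library in 28, replicate 2 in 27 and replicate 3 in 13, where 43.6%, 46.8% and 47.2% of all genes tested did so. The 13 genes are the ones in which all 3 MYC_Off libraries lay above all MYC_On libraries, which held for 33.2% of all genes tested. In 0 of the 28 did all MYC_Off libraries lie below MYC_On, which 29.8% of all genes tested did. Replicate 3 was therefore close to the share seen over all genes. Replicate 1 was the highest of the 6 libraries in all 28, and in 21.8% of all genes tested. Genes with few MYC_On reads had to have MYC_Off reads to be tested, so these counts describe the tested members and not the set. Over all 41 genes the numbers above the highest MYC_On library were 40, 36 and 15. MYC_Off replicate 3 had 0 reads for 11 of the 41 (Cd5, Ctla4, Tigit, Tbx21, Gzma, Gzmk, Klrb1c, Ifng, Cd79a, Ms4a1 and Jchain) and lay below the lowest MYC_On library in 13. For these counts over the 41 genes the matching shares over all genes, tested or not, were not computed. They therefore do not show whether replicate 3 was unusual.

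The scaling matters for these counts. TMM raised the level per read in MYC_Off replicates 2 and 3 most, and with library size as the only scaling all genes together had a median log2 fold change of -0.56 in place of 0.18. On that scale replicate 1 still exceeded the highest MYC_On library in 28 of the 28 tested genes (35.4% of all genes), replicate 2 did so in 21 (28% of all genes) and replicate 3 in 5 (26.8% of all genes). All 3 MYC_Off libraries then lay above MYC_On in 3 of the 28 genes, where 19.5% of all genes did so. On that scale 7 T cell, 3 NK and cytotoxic and 2 B and plasma cell genes were called higher and 0 lower, where 17.9% of all genes were called higher.

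Relative to other leukocyte genes, lymphocyte genes were higher than in every MYC_On library in MYC_Off replicate 1, while replicates 2 and 3 depended on the gene set and on the genes they were set against. For every 100 reads of the 12 pan-leukocyte genes, a ratio that needs no scaling, there were 11.6, 7.99 and 3.98 reads of NK and cytotoxic genes in MYC_Off replicates 1, 2 and 3, and 6.76, 7.45 and 6.20 in MYC_On. For B and plasma cell genes the values were 12.1, 7.31 and 5.12 in MYC_Off and 5.61, 4.81 and 6.78 in MYC_On. For T cell genes they were 15.9, 10.4 and 13.8 in MYC_Off and 7.06, 9.85 and 10.3 in MYC_On. Replicate 1 was highest for each set. Replicate 2 lay close above the highest MYC_On library in all 3 sets, and their 95% exact intervals, which cover counting error only, overlapped (9.61 to 11.1 and 9.25 to 11.4 for T cell genes). Replicate 3 was the lowest of the 6 libraries for NK and cytotoxic genes and inside the MYC_On range for B cell genes. Its T cell value rested on Cd4. Without that gene T cell genes stood at 14.0, 7.67 and 2.92 reads in MYC_Off and 4.16, 5.79 and 6.33 in MYC_On, with replicate 3 the lowest of the 6. For every 100 reads of the 14 macrophage genes, all 41 genes together had 10.9, 4.63 and 4.12 reads in MYC_Off and 4.33, 5.29 and 3.51 in MYC_On. Against that list replicate 1 was again the highest of the 6, and for the pooled genes replicates 2 and 3 lay within the MYC_On range. Replicate 3 differed between the sets in its point values. It was above MYC_On for T cell genes (2.48 against 1.55 to 2.36), but below without Cd4 (0.525 against 0.927 to 1.39). It was also below MYC_On for NK and cytotoxic genes (0.714 against 0.933 to 1.78) and B cell genes (0.921 against 1.02 to 1.25). Replicate 2 was above MYC_On for B cell genes only (1.32). Of these replicate 2 and 3 values, only the replicate 3 value without Cd4 had a 95% exact interval clear of MYC_On. With 3 samples a group, an exact permutation test of these ratios cannot give a p below 0.1, and leaving out Cd4 was chosen after its values had been seen.

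**Figure D4:**
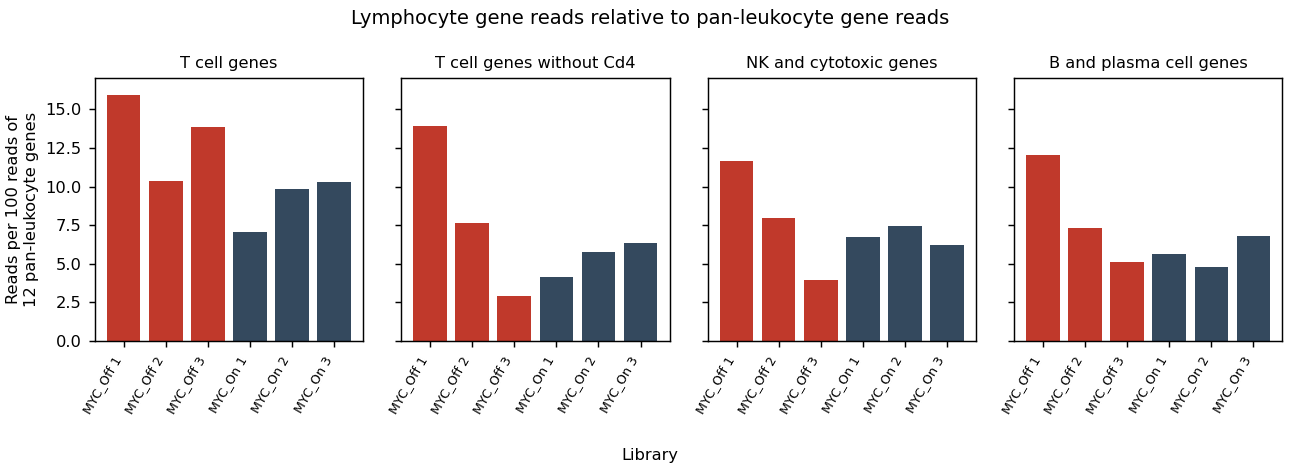
Reads of each lymphocyte set per 100 reads of 12 pan-leukocyte genes in each library (MYC_Off in red, left of MYC_On in dark grey), with 1 bar per library and no error bars, in 4 panels for the T cell genes, the same without Cd4, the NK and cytotoxic genes, and the B and plasma cell genes. MYC_Off replicate 1 has the tallest bar in each panel, and replicate 3 the shortest for NK and cytotoxic genes and for T cell genes without Cd4.

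Levels can be compared between genes per kilobase of exon. In MYC_Off replicate 1 the most abundant lymphocyte transcripts per kilobase were Jchain (54.3 CPM per kb), Ighm (33.0), Nkg7 (31.6), Il2rg (27.0) and Gzma (25.9). In MYC_Off replicate 3 Cd4 was the most abundant at 11 CPM per kb, followed by Ighm (3.46) and Il2rg (3.31). In the MYC_On libraries the highest means were those of Cd4 (1.62), Il2rg (1.58), Ighm (1.38), Gzma (1.11) and Cd22 (1.08). The leading transcripts of MYC_Off replicate 3 were thus among those that also led in MYC_On.

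Other genes of the same cell types, from lists of wider lineage genes, were also mostly highest in replicate 1 among the MYC_Off libraries, in 30 of 30 T cell, 24 of 25 NK and cytotoxic and 25 of 26 B and plasma cell genes. Replicate 3 was above replicate 2 in 3, 5 and 7 of them. Of 30 other T cell genes 15 were tested and 11 rose, of 25 other NK and cytotoxic genes 15 were tested and 10 rose, and of 26 other B and plasma cell genes 11 were tested and 5 rose, with 0 lower in each list. Of all genes tested 29.9% were called higher. Without MYC_Off replicate 1 the numbers that rose were 5, 6 and 4 (27.9% of all genes). They were 3, 4 and 2 without MYC_On replicate 1 (20.5%) and 3, 4 and 2 without MYC_On replicate 2 (20.4%). Without MYC_On replicate 3 they were 4, 3 and 3 (20.9%). The counts without a MYC_On library were thus close to the share over all genes. Medians of the tested genes were 3.63, 3.49 and 2.58 on the log2 scale with all libraries. Il7r, the interleukin 7 receptor of naive and memory T cells, had 45.1, 3.67 and 7.37 CPM in MYC_Off and 0.713, 0.655 and 0.937 CPM in MYC_On and rose (4.60, SE 1.00, adjusted p = 0.00812). Rhoh, a signalling GTPase of blood cells, rose as well (3.13, SE 0.72, adjusted p = 0.0101).

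Thy1, a surface protein of T cells that fibroblasts and other cells also carry, had 87.8, 9.34 and 41.9 CPM in MYC_Off and 1.69, 2.33 and 3.75 CPM in MYC_On (4.16, SE 0.81, adjusted p = 0.00536). Like Cd4, it was higher in replicate 3 than in replicate 2. Klra8, a receptor of NK cells in a family of close copies, had 14.5, 3.44 and 22.7 CPM in MYC_Off and 0.0445, 0.164 and 0.444 CPM in MYC_On (5.95, SE 0.99, adjusted p = 0.00316). It was highest in replicate 3, where Ncr1 and Klrb1c had 3 and 0 reads. Cd72, a B cell lectin, had 11.2, 4.06 and 16.4 CPM in MYC_Off and 1.25, 1.92 and 0.789 CPM in MYC_On (2.99, SE 0.63, adjusted p = 0.00726), again highest in replicate 3. Klrb1b and Stat4 among NK genes and Cd37 and Ebf1 among B cell genes rose too, with log2 fold changes of 5.11, 4.41, 4.13 and 2.58. Of these Ebf1, a B cell factor, was higher in replicate 3 than in replicate 2 (11.5, 2.07 and 6.91 CPM in MYC_Off).

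The immunoglobulin light chain Igkc differed most sharply between MYC_Off libraries among the B cell genes. It had 19378, 1082 and 2 reads in MYC_Off and 103, 154 and 356 reads in MYC_On, and did not pass (5.34, adjusted p = 0.0672). MYC_Off replicate 3 had fewer Igkc reads than any MYC_On library, as it had for Jchain. Igkc was named after its values had been seen.

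Markers of other blood and tissue cells did not share this order in every case. Of 10 neutrophil genes 9 were tested and 9 rose, with summed levels of 195, 160 and 277 CPM in MYC_Off and 3.74, 5.08 and 4.78 CPM in MYC_On, highest in replicate 3. Of 12 dendritic cell genes 10 were tested and 8 rose, with sums of 454, 290 and 224 CPM in MYC_Off and 102, 145 and 140 CPM in MYC_On. Itgax, an integrin of dendritic cells and macrophages, had 35.7, 10.4 and 18.2 CPM in MYC_Off and 2.23, 4.01 and 3.06 CPM in MYC_On (2.79, adjusted p = 0.00453). It had the same order of MYC_Off libraries as Cd4, as did Siglech and Tcf4, while 8 of the 12 genes were highest in replicate 1 and lowest in replicate 3, among them Zbtb46 with 10.8, 5.66 and 5.38 CPM in MYC_Off. Sums for 7 erythroid genes were 2300, 1656 and 696 CPM in MYC_Off and 92.6, 31.8 and 74.1 CPM in MYC_On, and those of 8 endothelial genes 638, 294 and 349 CPM in MYC_Off and 59.8, 54.8 and 64.6 CPM in MYC_On. All 12 pan-leukocyte genes, 13 of 14 macrophage genes, 6 of 6 tested erythroid genes and 6 of 7 tested endothelial genes rose. Of all genes tested 29.9% were called higher with all libraries, and 20.5%, 20.4% and 20.9% without MYC_On replicate 1, 2 and 3. In the fits without a MYC_On library, 5, 5 and 6 pan-leukocyte, 6, 7 and 9 macrophage and 5, 5 and 5 dendritic cell genes rose in turn. The 9 neutrophil genes rose each time. The part of these cells in the lymphocyte values was not tested.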

How the data were processed

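The 6 libraries are bulk RNA of mouse liver tumours, grouped and numbered by their titles. The deposited values are raw read counts per gene symbol. Per the submitters' processing notes, Trimmomatic, STAR, Picard, featureCounts and DESeq2 were used with mm10; their versions, the annotation and the strand setting were not given in the sources used here. MYC_Off was compared with MYC_On with R 4.3.3 and edgeR 4.0.16. Genes were kept by filterByExpr (about 10 reads at the median library size in at least 3 libraries of either group, 15 in total). TMM, a robust quasi-likelihood fit over all genes, and Benjamini-Hochberg adjustment at 0.05 followed. SE is the log2 fold change divided by the square root of F. The test was also run on simulated counts drawn for each gene separately. Such counts hold no library raised across many genes at once, so they do not cover the pattern seen here. Library medians used log2 CPM with a prior count of 2. Coordinates and exon lengths are from GENCODE M21. The 41 genes and all lists were chosen with earlier results of these data known. All listed lymphocyte genes could be named, and up to 3 genes of each other list by smallest adjusted p. Cd163, Marco, Siglech, Ccl21a, Glycam1 and Igkc were named outside that rule. Alternatives were DESeq2 1.42.0 (test or size factors), library size only, no filter, 1 CPM in 3 libraries, limma-voom (limma 3.58.1), a non-robust fit, a replicate block, a threshold of 0.01, and leaving out each library with the tested genes held fixed. No pair of libraries was a duplicate (chi-square over degrees of freedom at least 29.1). Figures used matplotlib 3.10.9.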

Additional observations from a re-analysis of the deposited data

How the results depend on the processing

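Over all genes, 2527 were higher and 5300 lower with library size only, and 2368 and 1889 at an adjusted p of 0.01. For T cell, NK and cytotoxic, and B and plasma cell genes in turn, the numbers called higher were 7, 3 and 2 with library size only, 9 of 21, 3 of 13 and 2 of 6 with no low-count filter, and 4 of 6, 5 of 8 and 3 of 4 with 1 CPM in 3 libraries (29.9% of all genes). They were 12, 10 and 3 with DESeq2 (Lat and Cd79b got no adjusted p), 3, 1 and 2 with limma-voom, 2, 0 and 2 with the replicate block (22.3% of all genes), and 1, 0 and 0 at 0.01 (16.8%). Without a filter Cd3d, Zap70 and Ctla4 were called (4.71, 4.88 and 4.81; adjusted p = 0.0346, 0.00854 and 0.0496). Leaving out each library gave 1 to 13, 0 to 10 and 0 to 4 calls, with medians of 1.84 to 3.97, 1.22 to 3.83 and 1.74 to 4.26, and 2885 to 4039 genes higher overall. At a count of 0 by the replicate block, 2 NK and cytotoxic genes had an unadjusted p under 0.05. The share of all genes under that unadjusted threshold was not computed. No value of a called gene changed sign. The cause of these shifts was not tested, beyond fewer samples or genes tested. The labels do not say whether equal replicate numbers pair samples. Correlations of deviations were -0.262, -0.168 and 0.04 for equal numbers and -0.115 to 0.321 for unequal ones. With 3 libraries a group these values cannot settle whether samples were paired. The replicate block is given here only. Members with under about 20 reads in MYC_On rest on few counts.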
